A study of Mus musculus with 4 samples.

Results

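Sham-operated mice provided 2 of the 4 libraries of CD45+ hematopoietic cells in this study, 1 from the brain and 1 from the dura mater, and the comparison described here sets these 2 tissues side by side without injury. Cells entered when over 1000 but under 6000 genes were detected in them and mitochondrial transcripts took no more than 7% of their UMIs (unique molecular identifiers, each standing for 1 captured transcript). This gave 3748 cells from the sham brain and 3569 from the sham dura mater, 7317 of the 14586 cells that passed in the whole series. The mice were adult male C57BL/6J, 8 to 10 weeks old per the study's methods, with no transgene or drug in these groups, and were sampled at day 3 after sham operation (S3); the deposited labels name the controls CT, which were read as S3. The other pair of libraries came from mice at day 3 after photothrombotic injury (D3). Tissue was dissociated with collagenase and dispase at a warm temperature and CD45+ cells were sorted by flow cytometry, so each library reflects what survived dissociation and the sort. The number of mice in each library is not given in the sources used here, and neither is whether blood was flushed from the vessels before the tissue was taken.

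With 1 library for each tissue, no difference between brain and dura mater can be tested against the spread between animals. Every interval below is an exact 95% interval that covers counting error only, no p-value is given, and tissue cannot be told apart from the library.

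The brain and its outermost covering hold different immune cells. Microglia are the resident macrophages of the brain parenchyma, and border-associated macrophages, which carry Mrc1 and Pf4, live in the meninges and around vessels. The dura mater has its own blood supply without a tight barrier and houses mast cells, B cells, neutrophils and innate-like T cells, and it lies against the skull, whose marrow makes blood cells.

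Cells were assigned by marker gates, such as at least 4 of 8 B cell genes, and cells that met the gates of several lineages were set apart. Depth over all kept cells was close, with a median of 8435.5 UMIs and 2445.5 genes per cell in the brain and 9637 UMIs and 2697 genes in the dura mater. It was less alike in neutrophils, with a median of 4746 UMIs in the brain and 7104 in the dura mater. The 2 libraries shared 8 barcodes, 5 of them among kept cells and 0 of these in the same class. Cells with several lineages made up 10.3% of the brain and 11.2% of the dura mater, with a median of 18964 and 16569 UMIs, and they entered no comparison of genes. Genes on the Y chromosome were detected in both libraries and Xist had 0 UMIs in the brain and 4 in the dura mater. The markers of microglia and of mast cells went with the tissue labels. The microglia gate, which needs at least 2 of P2ry12, Tmem119 and Sall1, took 434 brain cells and 12 dura mater cells. Mcpt4, a protease of connective tissue mast cells, reached 50977 UMIs per 1000000 UMIs of the class (CPM) in the mast cells of the dura mater. The 4 markers of the choroid plexus of the brain went the other way. They summed to 0.766 CPM in brain T cells and 13.8 CPM in those of the dura mater, and to 0.369 and 7.59 CPM in B cells. Their source was not tested.

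T cells were the commonest of the 6 classes shared by both tissues in the brain, and neutrophils were the commonest in the dura mater. T cells were 670 cells in the brain, 17.9% of its cells (16.7 to 19.1), against 190 in the dura mater, 5.32% (4.61 to 6.11), a share 3.36 times as high in the brain. NK cells and ILC1, innate lymphocytes that carry Ncr1 and Klrb1c, followed the same direction with 298 cells or 7.95% (7.1 to 8.86) against 75 cells or 2.1% (1.66 to 2.63). Neutrophils were 429 cells or 11.4% (10.4 to 12.5) in the brain and 715 or 20% (18.7 to 21.4) in the dura mater, 1.75 times as high there. Dendritic cells were 5.23% (4.54 to 5.99) in the brain and 7.87% (7.01 to 8.81) in the dura mater. The intervals of B cells overlapped, with 13.1% (12 to 14.2) and 12.1% (11.1 to 13.2), and so did those of monocytes, with 7.66% (6.83 to 8.56) and 8.99% (8.08 to 9.98). Shares sum to the whole library, so a higher share of 1 class lowers the others.

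**Figure D1:**
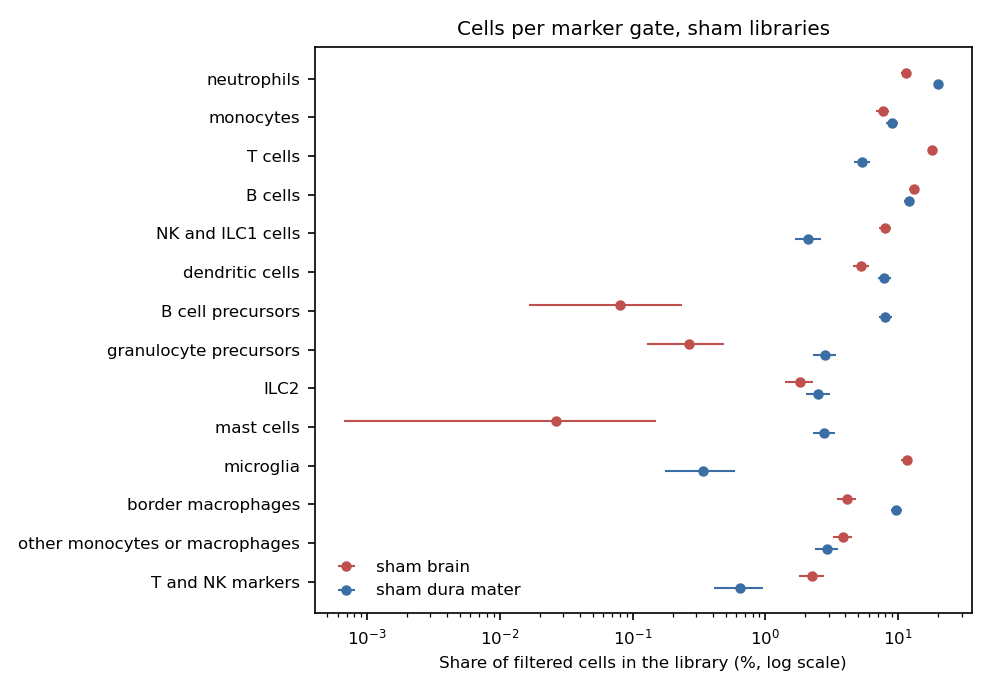
Share of filtered cells in each marker gate (horizontal axis, percent, log scale) for the sham brain (red) and the sham dura mater (blue), with exact binomial 95% intervals as bars. T cells and NK cells sit to the right in the brain, and B cell precursors, granulocyte precursors and mast cells sit at least 10 times further right in the dura mater.

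Several classes were close to restricted to 1 tissue. B cell precursors, defined by Vpreb1, Igll1, Rag1, Dntt and their like, numbered 285 in the dura mater (7.99%, 7.12 to 8.92) and 3 in the brain (0.08%, 0.0165 to 0.234). Cells that met the gate for granulocyte precursors, which rests on early granule genes such as Elane and Mpo, numbered 100 against 10. The 10 brain cells held neutrophil markers at 210 CPM, against 92382 CPM in the dura mater, and Ly6C hi monocyte markers at 7213 CPM, so the cells of the 2 tissues were unlike. Mast cells numbered 99 against 1. Border macrophages were 9.69% (8.74 to 10.7) of the dura mater and 4.08% (3.47 to 4.77) of the brain. ILC2, tissue innate lymphocytes that make type 2 cytokines, were 2.49% (2.01 to 3.06) of the dura mater and 1.81% (1.41 to 2.29) of the brain, with overlapping intervals.

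Within the shared classes some subsets differed more than their class and others less. Alpha-beta T cells were called by a Trac UMI in cells outside the gamma-delta gate, which needs Trdc and at least 2 of 5 gamma-delta genes. Some gamma-delta genes could therefore be present in them. Alpha-beta T cells were 75.2% of the 670 T cells in the brain and 37.4% of the 190 in the dura mater. Their share of all cells was 6.76 times as high in the brain. Gamma-delta T cells were 141 and 115 cells, 3.76% (3.18 to 4.42) and 3.22% (2.67 to 3.86), with overlapping intervals, and they were 21.0% of brain T cells but 60.5% of those in the dura mater. Immature neutrophils, called by the summed level of Camp, Ngp, Ltf, Lcn2 and Cebpe, most of them genes of secondary granules, were 499 of 715 in the dura mater and 178 of 429 in the brain, whereas mature neutrophils were 6.7% (5.92 to 7.54) of the brain and 6.05% (5.29 to 6.89) of the dura mater. The higher neutrophil share of the dura mater was therefore carried by the immature cells, 2.94 times as frequent there. Of the brain neutrophils, 17.9% lay within 2-fold of the value that divides the subsets, and of the dura mater neutrophils 16.9%. B cells with an Ighd UMI, the IgD heavy chain of mature naive B cells, were 434 of 491 in the brain and 257 of 432 in the dura mater. Ly6C low monocytes were 25.4% (20.5 to 30.9) of brain monocytes and 15% (11.2 to 19.3) of dura mater monocytes, and NK cells with an Eomes UMI were 53.0% (47.2 to 58.8) and 72.0% (60.4 to 81.8). Plasmacytoid dendritic cells numbered 21 in the brain and 52 in the dura mater.

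Transcripts that belong to other, abundant cells were found in each of the 6 shared classes, at levels that differed between the libraries. Whether they were free RNA, doublets or misplaced cells was not tested. S100a8, the main cytosolic protein of neutrophils, stood at 61.3 CPM in brain T cells and 173 CPM in dura mater T cells, at 74.5 and 225 CPM in B cells, and at 59.2 and 183 CPM in NK cells. Mcpt4 stood between 0 and 1.68 CPM in the 6 shared classes of the brain and between 11.1 and 18.5 CPM in those of the dura mater. Igkc, the kappa light chain of B cells, was near 25 CPM in the T cells of both tissues (28 and 24.1 CPM). A gene was therefore named only when its level in the tissue where it was higher was at least 3 times its lowest level among the other shared classes of the same library, together with the further conditions given with the methods.

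**Figure D2:**
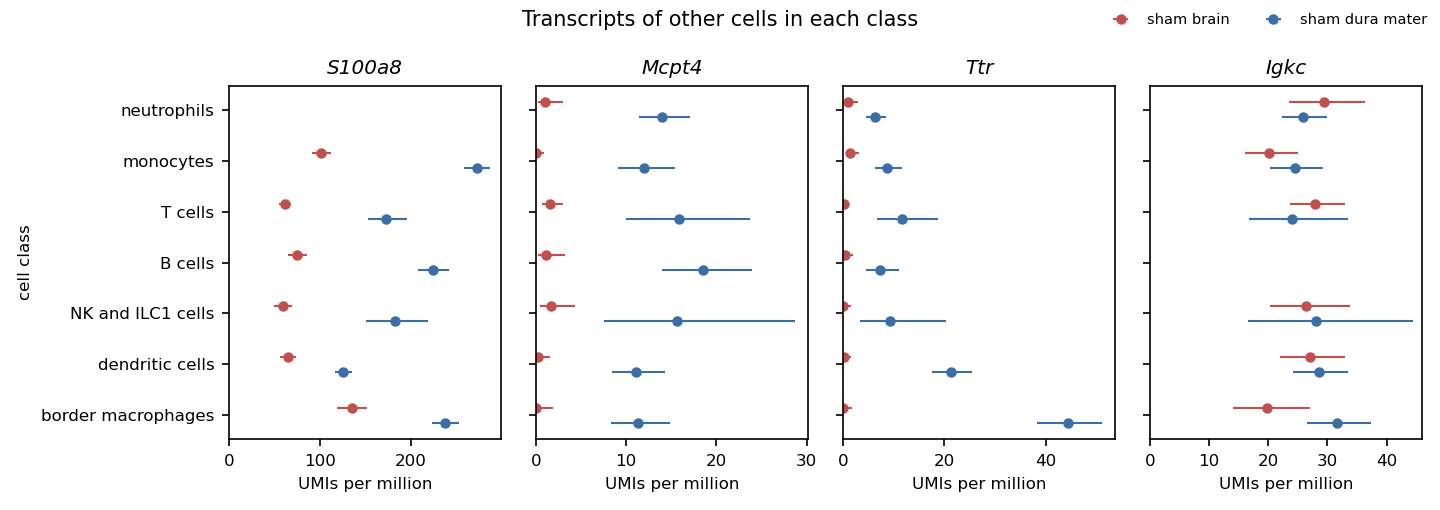
UMIs per 1000000 (horizontal axes) of 4 genes that mark other cells, in classes that are not their source, for the sham brain (red) and the sham dura mater (blue); bars are exact Poisson 95% intervals. S100a8, Mcpt4 and Ttr are higher in the dura mater in each class shown, while Igkc is at about the same level in both libraries.

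A difference seen in each of the 6 shared classes concerned the sum of Hspa1a and Hspa1b, neighbouring genes for the inducible heat shock protein HSP70 on chromosome 17 (GRCm38; Hspa1a at 34969190 to 34972156 and Hspa1b at 34956436 to 34959238, both on the minus strand). Their coding sequences are near copies, so reads can be split between them in an uncertain way, and their UMIs were also added up. The 250 bases before each start are shown because the genes moved together, with capitals marking GAANNTTC, the core of the heat shock element that is the same on both strands.

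Hspa1a, GRCm38.p6 chr17:34972157-34972406, minus strand: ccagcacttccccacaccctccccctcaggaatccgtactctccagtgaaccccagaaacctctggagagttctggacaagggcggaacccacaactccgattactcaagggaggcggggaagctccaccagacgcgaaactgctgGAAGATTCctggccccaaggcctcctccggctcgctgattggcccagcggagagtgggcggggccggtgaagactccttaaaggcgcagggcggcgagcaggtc
Hspa1b, GRCm38.p6 chr17:34959239-34959488, minus strand: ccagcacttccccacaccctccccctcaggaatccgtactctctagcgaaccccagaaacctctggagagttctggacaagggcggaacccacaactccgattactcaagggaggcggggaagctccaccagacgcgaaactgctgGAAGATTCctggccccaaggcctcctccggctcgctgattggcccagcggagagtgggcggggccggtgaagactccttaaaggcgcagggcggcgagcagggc

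These windows come from RefSeq and differ at 3 of 250 bases. Each holds the motif 1 time, starting 104 bases before the start of the gene, and 6.69% of the 32851 windows of this length in the table hold it. The summed level of the 2 genes was higher in the brain in each of the 6 classes. In B cells it was 3987 CPM (3913 to 4063) in the brain and 276 CPM (257 to 295) in the dura mater, 14.5-fold apart. In T cells it was 2396 CPM (2354 to 2438) against 164 CPM (144 to 186), or 14.6-fold, and 80.9% of brain T cells but 22.6% of dura mater T cells had a UMI. In monocytes it was 3374 against 1139 CPM, in NK cells 1842 against 719 CPM, in dendritic cells 1995 against 982 CPM and in neutrophils 197 against 96.3 CPM. The ratio was 2.56-fold in NK cells, where 77.2% of brain cells and 20% of dura mater cells had a UMI, and 2.03-fold to 2.96-fold in the myeloid classes. Among mature neutrophils alone, Hspa1a and Hspa1b were each at least 4-fold higher in the brain. In the injured pair the ratio of the sum was 70.8-fold in NK cells, 7.36-fold in neutrophils, 7.04-fold in monocytes and 2.19-fold in dendritic cells. The NK cell value rests on 10 UMIs in the injured dura mater, with a log2 ratio of 6.14 (5.26 to 7.21). The neutrophil value was the lowest of the 6 classes in the brain and in the dura mater.

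Of the 10 heat shock genes listed, 9 of which had enough UMIs in neutrophils, the members that stood at least 2-fold higher in the brain were 4 in T cells, 4 in B cells, 4 in monocytes, 3 in NK cells, 2 in dendritic cells and 1 in neutrophils, and 0 were higher in the dura mater in any class. Over all genes the shares higher in the brain were 2.61%, 2.33%, 0.752%, 2.13%, 0.563% and 4.58% in this order. The chaperone partners Dnajb1 (442 and 142 CPM) and Hsph1 (158 and 55.8 CPM) were among them in T cells, while the constitutive Hspa8 was at 2469 and 2186 CPM there. The medians of the list were 0.57 in T cells, 0.40 in B cells, 0.65 in monocytes and -0.04 in neutrophils on the log2 scale. Heat shock genes are known to respond to warm enzymatic dissociation, and with 1 library for each tissue handling and tissue cannot be told apart. Rhob, an early-response GTPase, was the only gene at least 2-fold higher in the brain in all 6 classes, with log2 ratios of 1.29 in neutrophils, 1.48 in monocytes, 1.53 in T cells, 2.12 in B cells, 2.20 in NK cells and 1.04 in dendritic cells, among 4972 genes tested in all of them; 0 genes did so in the dura mater.

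Taken over all subsets together, T cells of the brain carried more of the genes of naive and circulating lymphocytes. T cells of the dura mater carried more of those of activated and helper cells. The mix of subsets differed, with gamma-delta cells 21.0% of T cells in the brain and 60.5% in the dura mater. Of 6183 genes with at least 100 UMIs, 15 were at least 4-fold higher in the brain (0.243%) and 32 in the dura mater (0.518%), with a median log2 ratio of -0.22. After centring on that median the counts were 20 and 19. Klf2, a transcription factor that keeps T cells quiescent and circulating, was at 1420 CPM in the brain and 173 CPM in the dura mater, a log2 ratio of 3.03 (2.85 to 3.22). Ccr7, the receptor for entry into lymph nodes, was at 230 and 37.2 CPM, with a log2 ratio of 2.63 (2.24 to 3.05). Ccr9, a gut-homing chemokine receptor, was at 37 and 6.2 CPM, and Ly6c1 at 41.2 and 4.82 CPM. Of 11 members of the list for recirculation and naive lymphocytes, 7 were at least 2-fold higher in the brain and 0 in the dura mater (all genes with at least 50 UMIs, 2.61% and 6.86%), with a median log2 ratio of 1.18. Among the others of the 7 were S1pr1, Lef1, Satb1 and Klf3, with log2 ratios between 1.12 and 1.47.

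In the other direction, Tnfsf11, which encodes the cytokine RANKL, was at 22.6 CPM in brain T cells and 139 CPM in dura mater T cells, with a log2 ratio of -2.62 (-2.96 to -2.29). Klf4 was at 49.2 and 294 CPM, Maff at 14.6 and 89.5 CPM, and Ell2 at 13.8 and 75 CPM. Fam83a was at 7.86 and 48.2 CPM, but among alpha-beta T cells it had 3 UMIs in the brain and 0 in the dura mater, so the difference was not seen in that subset. Pf4, at 7.47 and 102 CPM, also met the conditions for a named gene, but it is a defining gene of border macrophages, where it reached 3272 CPM in the dura mater, and the part of such transcripts in the T cell value was not tested. Of 10 genes of helper and regulatory T cells, 6 were at least 2-fold higher in the dura mater and 0 in the brain, with a median of -1.42. Over all genes the shares were 6.86% and 2.61%. Il2ra, the high-affinity IL-2 receptor chain, was at 41.2 and 140 CPM, and Tnfrsf4, the costimulatory receptor OX40, at 33.2 and 88.8 CPM. Il17a, the effector cytokine of type 17 cells, was at 342 and 917 CPM. Foxp3, which defines regulatory T cells, was at 13 and 13.1 CPM. Interferon-stimulated genes were also higher in the dura mater, 9 of 13 by at least 2-fold and 0 in the brain, against the same shares of all genes. Isg15 was at 57.3 and 155 CPM and Cxcl10 at 23.8 and 63.3 CPM.

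Some of these differences were seen within the T cell subsets and others were not. Among alpha-beta T cells 9 genes were at least 4-fold higher in the brain and 6 in the dura mater, with fewer genes tested. Of the genes called in all T cells, 7 of 15 and 2 of 32 were called there too. Klf4, Maff and Ell2 had log2 ratios of -1.50, -1.98 and -1.68 in these cells, smaller than over all T cells. Within gamma-delta T cells Il17a was at 1659 CPM in the brain and 1644 CPM in the dura mater, a log2 ratio of 0.01 (-0.09 to 0.12), and within alpha-beta T cells it was at 46.1 and 39.1 CPM, 0.24 (-0.37 to 0.90). The difference over all T cells was not seen within either subset. Klf2 kept its direction in both subsets, at 298 and 18.9 CPM in gamma-delta T cells (log2 ratio 3.98, 3.23 to 4.84) and at 1646 and 369 CPM in alpha-beta T cells (2.16, 1.97 to 2.35). Isg15 was lower in the brain in both, by -2.23 (-2.89 to -1.62) in gamma-delta and -1.47 (-1.79 to -1.13) in alpha-beta T cells. Ifng, the type 1 cytokine, stood at 116 and 8.8 CPM in gamma-delta T cells, on 111 and 7 UMIs. Among alpha-beta T cells, Il2ra (16.4 and 79.8 CPM) and Tnfrsf4 (39.8 and 199 CPM) were lower in the brain, and of the naive list 2 of 11 members were at least 2-fold higher there, against 2.44% of all genes. Cd4 had a UMI in 35.1% (31 to 39.5) and 39.4% (28 to 51.7) of the alpha-beta T cells, Cd8b1 in 39.9% (35.6 to 44.3) and 28.2% (18.1 to 40.1), and Foxp3 in 4.56% (2.91 to 6.77) and 9.86% (4.06 to 19.3), with intervals that overlapped for each. The dura mater value rests on 71 cells.

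**Figure D3:**
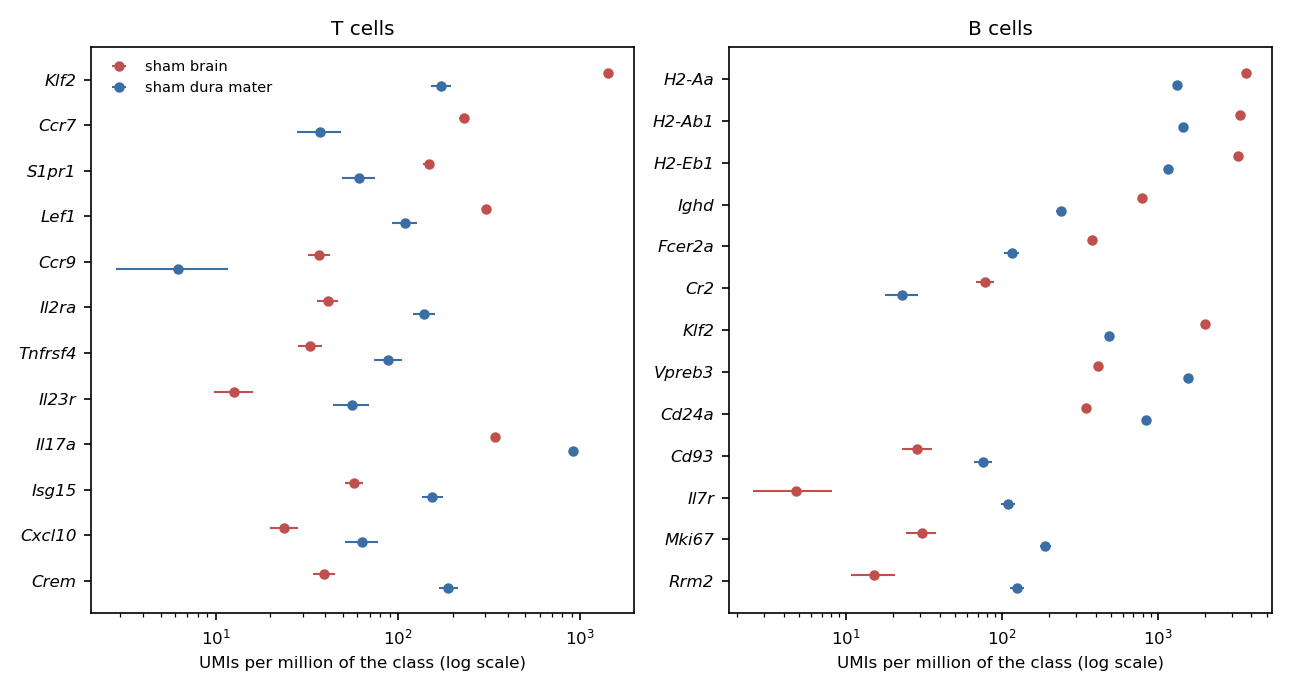
UMIs per 1000000 of the class (horizontal axes, log scale) for 12 genes in T cells (left) and 13 in B cells (right), sham brain in red and sham dura mater in blue, with exact Poisson 95% intervals. In T cells the first 5 genes are higher in the brain and the other 7 in the dura mater; in B cells the first 7 are higher in the brain and the other 6 in the dura mater.

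B cells had the most genes called of the 6 classes, though not in every alternative setting. Mature features were higher in the brain, and immature and cycling features were among those higher in the dura mater. Of 5983 genes, 20 were at least 4-fold higher in the brain (0.334%) and 95 in the dura mater (1.59%), with a median log2 ratio of -0.24; after centring the counts were 32 and 79. Fcer2a, the low-affinity IgE receptor of follicular B cells, was at 378 and 116 CPM in the brain and dura mater, and the complement receptor Cr2 at 78.2 and 22.8 CPM. Gpr183, which guides B cells to follicle borders, was at 196 and 26.1 CPM, with a log2 ratio of 2.91 (2.57 to 3.27), and Klf2 at 2023 and 484 CPM. Pmaip1, a BH3-only gene, was at 69.3 and 9.57 CPM, Wfdc17 at 95.9 and 10.9 CPM and Gm8369 at 588 and 95.7 CPM.

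Genes of antigen presentation were higher in brain B cells as a group. Of 10 MHC class II genes, 8 were at least 2-fold higher in the brain and 0 in the dura mater, with a median log2 ratio of 1.27, against 2.33% and 8.48% of all genes. H2-Aa was at 3687 and 1331 CPM, H2-Ab1 at 3374 and 1445 CPM and H2-Eb1 at 3272 and 1160 CPM. The peptide exchange genes H2-DMa and H2-DMb2 had log2 ratios of 1.21 and 1.32, and the transactivator Ciita was at 152 and 76.9 CPM. The invariant chain Cd74 was at 16283 and 9975 CPM, a log2 ratio of 0.71. In dendritic cells, which carry these genes at high levels, 0 of 9 members differed by 2-fold (0.563% of all genes were higher in the brain and 2.0% in the dura mater) and the median was -0.12.

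Il7r, the receptor for the growth factor of B cell precursors, was at 4.79 CPM in brain B cells and 110 CPM in dura mater B cells, with a log2 ratio of -4.52 (-5.44 to -3.72). Gfra1 was at 2.21 and 33.3 CPM, Uchl1 at 2.95 and 37.9 CPM and Gas7 at 4.43 and 38.3 CPM. Vpreb3, a surrogate light chain partner that falls as B cells mature and is itself among the genes that set precursors apart, was at 412 and 1566 CPM, Cd24a at 349 and 839 CPM and Cd93, a marker of transitional B cells, at 28.8 and 75.6 CPM. All 12 proliferation genes were at least 2-fold higher in the dura mater, with a median of -2.49. Mki67 was at 30.6 and 190 CPM, Rrm2 at 15.1 and 125 CPM, Cdk1 at 11.4 and 105 CPM and Fbxo5 at 9.22 and 80.8 CPM. Cells with at least 3 of 5 cycling markers were 1.02% (0.331 to 2.36) of brain B cells and 9.49% (6.9 to 12.7) of dura mater B cells, apart from the gated precursors, of which 30.2% cycled. The dura mater cells also held Elane at 187 CPM, in 4.86% of the cells, and Hbb-bs at 870 CPM, against 0.738 CPM each in the brain. Whether these transcripts of granulocyte precursors and erythroid cells came from free RNA, doublets or misplaced cells was not tested. The basophil genes Prss34 (0 and 314 UMIs) and Mcpt8 (3 and 118 UMIs) were also higher in the dura mater. The largest ratio of the class was that of Ighg2b, the heavy chain of the switched class IgG2b, at 0.738 and 1505 CPM on 2 and 4560 UMIs. Ighg2b did not meet the conditions for a named gene.

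Many of the calls remained among B cells with an Ighd UMI, 434 and 257 cells. There 18 and 66 genes were at least 4-fold higher in the brain and the dura mater. The largest ratios toward the dura mater were those of erythroid and granulocyte precursor genes, led by Hbb-bs, Elane and Ctsg. Cycling genes such as Pclaf, Ccna2 and Cenpe came next. Of the 115 genes called in all B cells, 68 were called there too. H2-Aa was at 4149 and 1776 CPM in these cells, Fcer2a at 440 and 151 CPM and Il7r at 5.4 and 90.6 CPM. When cells with any cycling marker were also left out, the counts fell to 14 and 14, and Cdk1 had 0 UMIs in both tissues and Fbxo5 9 and 3, which leaves no direction for either. Il7r was then at -3.52 (-4.80 to -2.44), Uchl1 at -5.38 on 1 and 25 UMIs, and Gpr183 at 2.28 (1.88 to 2.72).

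Taken as 1 class, NK cells and ILC1 of the brain carried more chemokine and residency genes. Cells without an Eomes UMI were 47.0% of the class in the brain and 28.0% in the dura mater, so its mix differed. Of 3916 genes, 8 were at least 4-fold higher in the brain (0.204%) and 1 in the dura mater (0.0255%). The last was C1qa, a complement gene of macrophages, at 21.4 and 102 CPM, which did not meet the conditions for a named gene and was chosen after its values were seen. Ccl4, an inflammatory chemokine, was at 4608 and 881 CPM, with a log2 ratio of 2.39 (2.26 to 2.51), and its neighbour on chromosome 11, Ccl3, at 1572 and 169 CPM, 3.22 (2.94 to 3.51). Cxcr6, which marks liver-type ILC1 and tissue-resident lymphocytes, was at 202 and 45.3 CPM, on 481 and 29 UMIs. Gadd45g was at 105 and 20.3 CPM, the chaperone partner Dnajb1 at 605 and 130 CPM and C1qtnf6 at 46.1 and 10.9 CPM, the last on 110 and 7 UMIs. Of 13 residency genes, 5 were at least 2-fold higher in the brain, namely Cxcr6, Itga1, Bhlhe40, Xcl1 and Inpp4b, against 2.13% of all genes. Crem, at 75.9 and 178 CPM, was the 1 member higher in the dura mater, against 1.95%. The cytotoxic genes were closer, with Gzma at 3882 and 3911 CPM, Ccl5 at 8153 and 7045 CPM and Prf1 at 435 and 353 CPM. Of 8 such genes only Gzmb, at 865 and 222 CPM, differed by 2-fold.

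In cells with an Eomes UMI, which marks conventional NK cells against ILC1, 158 in the brain and 54 in the dura mater, Ccl3 was at 1531 and 163 CPM and Ccl4 at 3254 and 686 CPM, so both kept their differences. Cxcr6 had 41 UMIs in these brain cells, 32.4 CPM, and 0 in those of the dura mater. With 75 cells in all, the dura mater is the limit for this class.

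Neutrophils of the dura mater were shifted to earlier stages. Of 5660 genes, 18 were at least 4-fold higher in the brain (0.318%) and 33 in the dura mater (0.583%), and with cells weighted equally the counts were 12 and 81. The balance lay the other way with 1 more marker per gate (68 and 47) and with cycling cells left out (10 and 6). Proliferation genes were prominent on the dura mater side, with 11 of 12 at least 2-fold higher, against 7.83% of all genes, and a median of -1.52. The 33 genes also included some that mark other cells. Among these were Ccl8 (0 and 101 UMIs in the brain and dura mater), Mcpt4 (3 and 100) and Pf4 (26 and 287), whose source was not tested. Mki67 was at 61.2 and 168 CPM in the brain and dura mater and Rrm2 at 9.58 and 73.3 CPM, and cells with at least 3 cycling markers were 1.86% (0.808 to 3.64) and 10.3% (8.21 to 12.8). Chil3, a chitinase-like protein of immature neutrophils and monocytes, was at 2679 and 7274 CPM. Among mature neutrophils Chil3 lay in the opposite direction, at least 4-fold higher in the brain. Of the named genes, Igfbp4 was at 6.84 and 28 CPM, and at 7.6 and 32.1 CPM among mature neutrophils. Fnbp1l was at 2.74 and 16.1 CPM and Marveld1 at 3.08 and 15.8 CPM, but among mature neutrophils each had 1 UMI in the brain and 0 in the dura mater, so neither difference was seen in that subset.

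Brain neutrophils had more transcripts of inflammatory and interferon-stimulated genes. Cxcr4, the receptor that retains neutrophils in marrow and marks aged ones, was at 387 and 133 CPM. Il1b was at 4308 and 1559 CPM and Cxcl2 at 2190 and 696 CPM, and 7 of 15 inflammatory genes were at least 2-fold higher in the brain against 4.58% of all genes. Isg15 was at 241 and 69.1 CPM, 1 of 6 interferon-stimulated genes of 13 that were at least 2-fold higher. Csf1 was at 61.6 and 11.4 CPM, Fgl2 at 281 and 52.7 CPM, Gngt2 at 74.9 and 5.75 CPM, Pmaip1 at 54.4 and 7.29 CPM, Prr5l at 28.1 and 3.92 CPM and Cass4 at 28.1 and 5.33 CPM.

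Fewer of these differences were seen within the mature stage. Among mature neutrophils, 251 and 216 cells, 6 genes were at least 4-fold higher in the brain and 9 in the dura mater, and 2 of them were among the 51 called in all neutrophils. Il1b was then at 8623 and 6958 CPM, a log2 ratio of 0.31, and 1 of 11 interferon genes and 3 of 15 inflammatory genes were at least 2-fold higher in the brain, against 3.19% of all genes in these cells. Nfkbia kept a log2 ratio of 1.25 (1.15 to 1.35), Isg15 of 1.11 (0.88 to 1.34), Ccl3 of 2.11 and Csf1 of 1.83. The proliferation list turned in these cells to a median of 1.32, on 3 members with enough UMIs.

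Monocytes were the most alike. Of 6978 genes, 5 were at least 4-fold higher in the brain and 5 in the dura mater (0.0717% each). After centring the counts were 7 and 4. The largest ratio toward the dura mater was that of Retnla, at 0.747 and 70.2 CPM on 3 and 347 UMIs. Saa3 was at 2.24 and 26.3 CPM. The largest toward the brain was that of Hspb1, at 46.5 and 1.21 CPM on 187 and 6 UMIs. None of these genes met the conditions for a named gene. Id1, an inhibitor of basic helix-loop-helix factors, was at 182 and 33 CPM, a log2 ratio of 2.46 (2.21 to 2.72), and Fam71a at 37.3 and 8.9 CPM. Of 15 inflammatory genes, 4 were at least 2-fold higher in the brain and 1 in the dura mater, against 0.752% and 1.12% of all genes. The 4 were Ccl3 (1014 and 361 CPM), Ccl4 (1052 and 282 CPM), Tnf (69.4 and 17.8 CPM) and Il1a (21.7 and 5.46 CPM). Il1rn, the antagonist of the IL-1 receptor, was higher in the dura mater, at 8.96 and 30.4 CPM, and Il1b was at 1235 and 1606 CPM. C1qa, which microglia and macrophages carry at high levels, was at 151 CPM in brain monocytes and 66 CPM in those of the dura mater, and its part in these differences was not tested. The interferon, MHC class II, proliferation and chemokine receptor lists had 0 members 2-fold apart.

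Dendritic cells differed nearly as little. Of 7053 genes, 4 were at least 4-fold higher in the brain (0.0567%) and 16 in the dura mater (0.227%), and within cDC2 the counts were 4 and 4. Id3, which with Id1 is a target of BMP and TGF-beta signals, was at 260 and 53.6 CPM, with a log2 ratio of 2.28 (2.09 to 2.47), and Id1 at 33.7 and 6.02 CPM. Ccl8, a chemokine of tissue macrophages, was at 1.11 CPM in brain dendritic cells on 4 UMIs and at 159 CPM in those of the dura mater on 847, in 13.9% of the cells. Border macrophages held 236 and 1104 CPM of Ccl8, and the 7 border macrophage markers summed to 204 CPM in brain dendritic cells and 613 CPM in those of the dura mater. Among cDC2 Ccl8 was at 0.424 and 10.8 CPM. The part of border macrophage transcripts in the dendritic cell value was not tested. Thbs1 was at 13.8 and 59 CPM, Gas6, a bridging ligand for engulfment of dying cells, at 6.63 and 34.4 CPM (1.27 and 7.21 CPM among cDC2) and Fbxl18 at 4.7 and 18.8 CPM. Ttr, the thyroxine carrier of the choroid plexus, was at 0.276 CPM in the brain on 1 UMI and at 21.3 CPM in the dura mater on 113. It was at 6.31 to 11.7 CPM in the other 5 shared classes of the dura mater, whose cells are not known to make it, and at 44.4 CPM in border macrophages there.

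**Figure D4:**
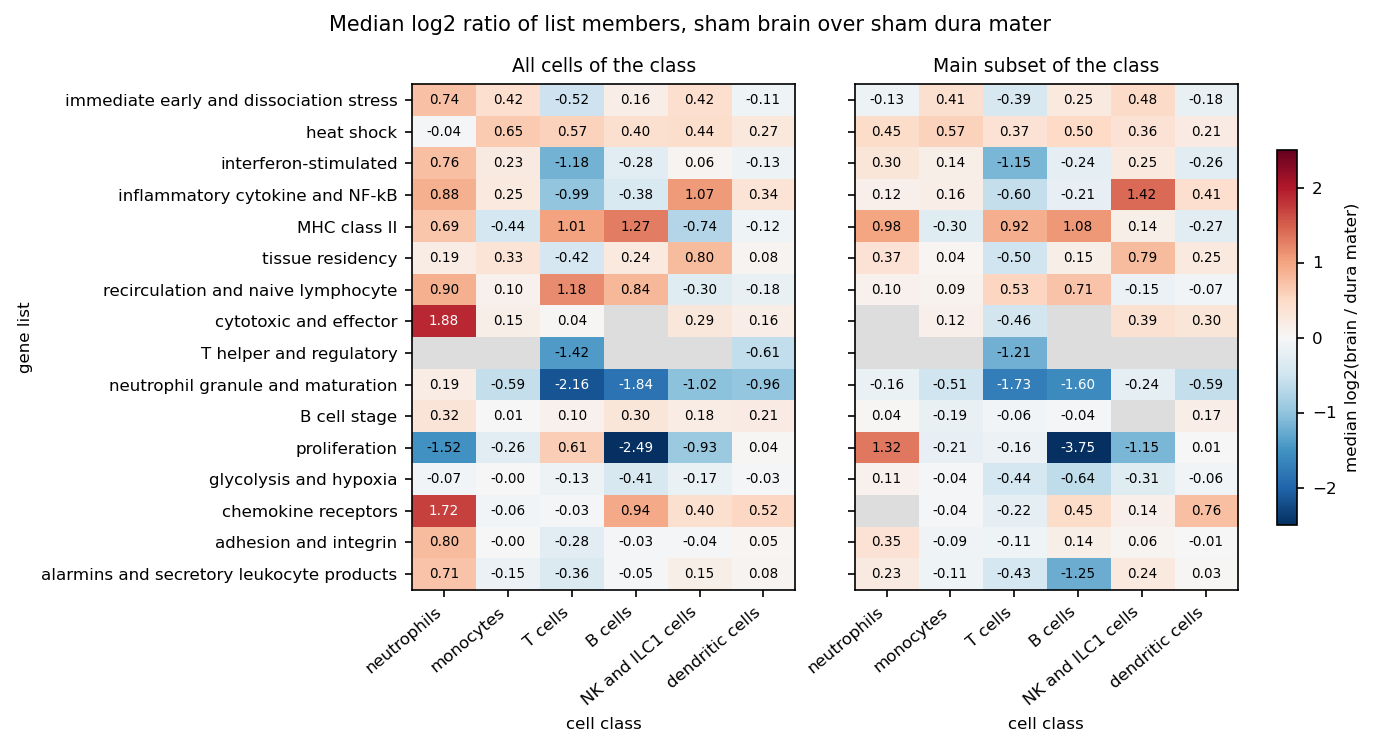
Median log2 ratio of sham brain over sham dura mater for each gene list (rows) and cell class (columns), over all cells of the class (left) and over its main subset (right); red is higher in the brain, blue is higher in the dura mater, and grey cells have fewer than 3 members with 50 UMIs. MHC class II is at 1.27 in B cells and 1.01 in T cells, proliferation is at -2.49 in B cells and changes sign from -1.52 to 1.32 between all and mature neutrophils, and the neutrophil granule list is negative in each class except neutrophils.

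Genes that belong to other cells were also compared. Neutrophil granule and maturation genes had medians of -2.16 in T cells, -1.84 in B cells, -1.02 in NK cells, -0.96 in dendritic cells and -0.59 in monocytes, all lower in the brain, where neutrophils were less frequent. The T cell median turned to 0.34 when each cell was thinned to 2000 UMIs, on fewer members. MHC class II genes in T cells, with 5 of 8 at least 2-fold higher in the brain against 2.61% of all genes, stood at low levels, Cd74 at 276 and 136 CPM and H2-Eb1 at 105 and 36.5 CPM. The lowest of the other classes held 82.2 and 110 CPM of Cd74 in the brain and dura mater, and the part of transcripts from other cells in the T cell values was not tested.

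The D3 brain and D3 dura mater came from other mice and share no library with the sham pair. They are injured tissue and no repeat of the sham contrast, so their values are given side by side. Of the genes called at 4-fold in the sham pair and with enough UMIs in the injured pair, 27 of 31 in neutrophils, 6 of 8 in monocytes, 21 of 22 in T cells, 19 of 20 in B cells, 6 of 6 in NK cells and 15 of 17 in dendritic cells had the same direction. Over all genes tested in both pairs, 61.6% to 73.7% did, depending on the class. Klf2 in T cells was at 894 and 150 CPM in the injured brain and dura mater, Tnfsf11 at 38.5 and 140 CPM, Ccl4 in NK cells at 4305 and 1059 CPM, and Ccl8 in dendritic cells at 2.11 and 207 CPM. The sum of Hspa1a and Hspa1b in T cells was 1309 and 64.7 CPM, and in B cells 2273 and 15.7 CPM, the last on 13 UMIs. MHC class II genes of B cells had a median of 0.50 with 0 of 10 members 2-fold apart, and interferon-stimulated genes of T cells had a median of 0.45 against -1.18 in the sham pair.

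**Figure D5:**
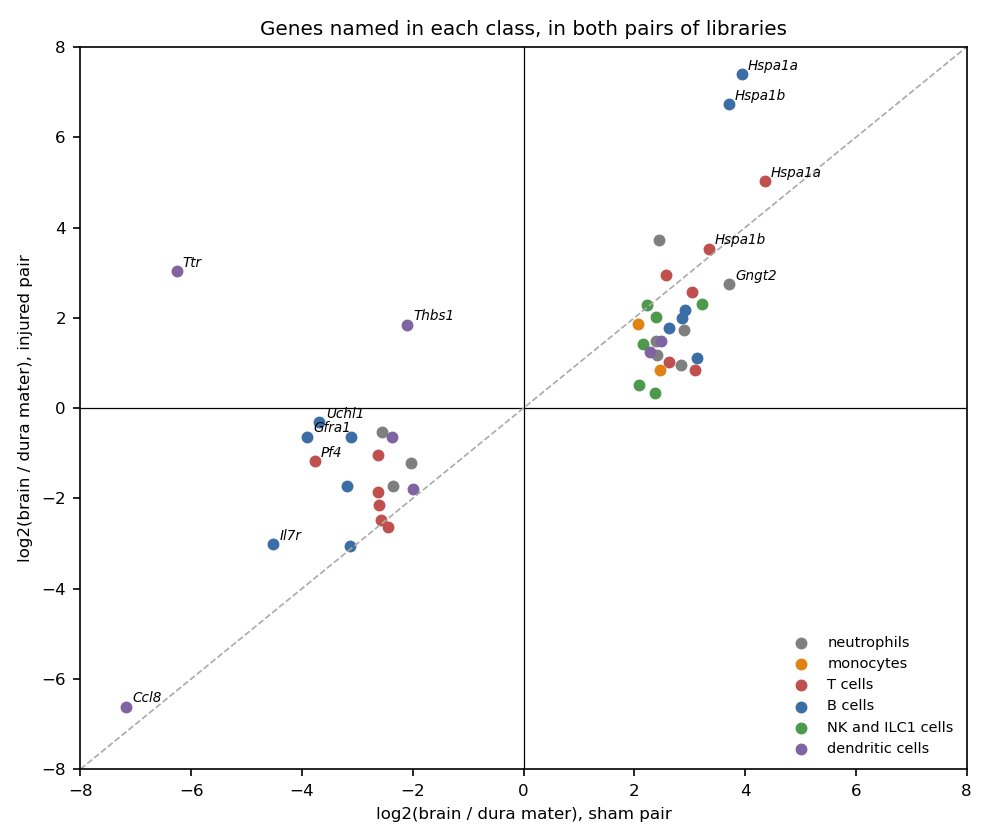
Log2 ratio of brain over dura mater for each named gene in the sham pair (horizontal axis) and in the injured pair (vertical axis), coloured by cell class; the dashed line marks equal values. Ttr (-6.27 and 3.03) and Thbs1 (-2.10 and 1.85), both in dendritic cells, are the only named genes in opposite directions, and Ccl8 lies near the line at -7.17 and -6.62.

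The shares of some classes lay in opposite directions in the 2 pairs. T cells were 3.36 times as frequent in the sham brain as in the sham dura mater and 0.654 times as frequent in the injured pair, and for gamma-delta T cells the ratios were 1.17 and 0.264. For B cells they were 1.08 and 0.336, for B cells with an Ighd UMI 1.61 and 0.352, and for monocytes 0.851 and 1.43, with overlapping intervals in the sham pair for gamma-delta T cells, all B cells and monocytes. For NK cells they were 3.78 and 1.10, in the same direction. For neutrophils they were 0.571 and 0.470, for immature neutrophils 0.340 and 0.331, for mast cells 0.00962 and 0.00743, and for B cell precursors 0.0100 and 0.0207.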

How the data were processed

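The authors sorted CD45+ cells, prepared 10× Chromium libraries, mapped reads to mm10 with Cell Ranger 3.1.0 and normalized the values in Seurat 3.1.0. Deposited values are on a natural log scale, namely ln(1 + x), where x is the UMIs of a gene in 10000 UMIs of the same cell. The lowest value above 0 of each cell was taken as 1 UMI, and 100% of the values were then whole within a relative 1e-06. Each file lists genes seen in at least 3 cells, and a gene not listed was taken as 0. Kept cells held 40131578 UMIs in the brain and 44099779 in the dura mater.

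For each class and library UMIs were added up and given per 1000000 (CPM), with exact Poisson intervals. Shares have Clopper-Pearson intervals, and ratios have exact conditional binomial ones. In ratios a count of 0 was replaced by a floor of 3 UMIs per library. Calls needed a 4-fold ratio and 100 UMIs in both libraries together, list members 50 UMIs and 2-fold, and genes of the class gates were left out. Up to 6 genes per direction were named, which also had a UMI in at least 10% of the cells where higher, stood at least 3 times above the lowest other shared class, and differed at least 2-fold in the main subset (mature neutrophils, Ly6C hi monocytes, alpha-beta T cells, B cells with Ighd, NK cells with Eomes, cDC2). Fnbp1l, Marveld1 and Fam83a met the last condition only through the floor. Members of the 17 gene lists were named as well. The values of some list members are not reported here.

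Markers, gene lists and the comparison itself were chosen with earlier results of these data known. Scrublet (scanpy 1.11.5) marked 3 and 2 sham barcodes by its own threshold, which was not used. An alternative removed the highest scores, 0.8% per 1000 barcodes (206 and 201 barcodes). Python 3.11.15 and scipy 1.17.1 were used, and the scripts were tested on simulated data. Gene coordinates are from GENCODE vM21 (GRCm38).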

Additional observations from a re-analysis of the deposited data

Results flagged for a closer look

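In 3 results, among the named genes and the shares of whole classes, the sham pair and the injured pair lay in opposite directions with intervals that set the tissues apart in both pairs. None of these differences between pairs was tested, since each pair holds 1 library per tissue. The share of T cells in the brain over that in the dura mater was 3.36 in the sham pair and 0.654 in the injured pair. B cells with an Ighd UMI, a subset not counted among the 3, met the same rule with ratios of 1.61 and 0.352. Ttr in dendritic cells had a log2 ratio of brain over dura mater of -6.27 in the sham pair and 3.03 in the injured pair, where it stood at 7.96 and 0.974 CPM. Thbs1 in dendritic cells had log2 ratios of -2.10 and 1.85, with 255 CPM in the injured brain and 70.8 CPM in the injured dura mater. Over all kept cells Ttr was at 1.5 CPM in the sham brain and 14.6 CPM in the sham dura mater.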

How the results depend on the processing

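With 1 library for each tissue no replicate could be left out. No paired analysis was possible because each group holds 1 library and the results come from no test. Without the filter on cells the shares in brain and dura mater were 9.97% and 16.4% for neutrophils, 6.19% and 6.78% for monocytes, 15.5% and 18.1% for B cells, 6.51% and 1.63% for NK cells and 4.48% and 6.47% for dendritic cells, and 16.0% for T cells of the brain. B cells were then more frequent in the dura mater. With 1 more marker per gate they were 3.76% and 4.51% for monocytes and 2.83% and 5.46% for dendritic cells, and 12.6% for neutrophils of the brain.

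The numbers of genes 4-fold apart were 51 in neutrophils, 10 in monocytes, 47 in T cells, 115 in B cells, 9 in NK cells and 20 in dendritic cells. In this order they were 266, 53, 202, 362, 73 and 84 with a minimum of 20 UMIs, and 873, 407, 749, 707, 216 and 607 after the lowest other shared class was subtracted, with 673 of the 873 in neutrophils higher in the brain. B cells did not have the most genes after subtraction, with 1 more marker per gate (105, neutrophils 115) or with cycling cells left out (43, T cells 47). With each cell thinned to 2000 UMIs they were 10 in neutrophils, 2 in monocytes, 17 in T cells, 36 in B cells and 2 in dendritic cells, with fewer genes tested. Neutrophils had 93 with cells weighted equally. With 1 more marker per gate neutrophils had 115, NK cells 22 and dendritic cells 13. In the main subset neutrophils had 15, T cells 15 and dendritic cells 8. As alternatives chosen after seeing the data, cells with 2 or more cycling markers were left out, which gave 16 in neutrophils and 43 in B cells, and cells of the main subset with any cycling marker were left out, which gave 13 in neutrophils, 14 in T cells, 28 in B cells and 8 in dendritic cells. Under the last setting Fbxo5 in B cells was at 0.85 (-1.16 to 3.37) on 9 and 3 UMIs, which shows no direction. The median of the proliferation list turned to 1.32 in mature neutrophils, and that of the neutrophil granule list in T cells to 0.34 after thinning. Genes 2-fold higher in 1 tissue in all 6 classes numbered 1, and 4 both after thinning and after subtraction. List members 2-fold apart over all classes numbered 273, and 179 after thinning. Apart from cells left out and fewer genes tested, the cause was not tested. NK cells of the dura mater, with 75 cells, and alpha-beta T cells there, with 71, set the limit of precision.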
